A study of Mus musculus with 2 samples.

Results

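The stretch of mouse chromosome 5 that carries Shh, Rnf32, Lmbr1, Nom1 and Mnx1 was described in a CTCF ChIP-seq data set of R1/E embryonic stem cells (ESCs), with every CTCF peak, its motif and the tags of both libraries. The region was taken from the lowest coordinate of Shh, the first of these genes on the mm9 map, to the highest coordinate of Mnx1, the last, with 200 kb added on each side (GENCODE M1 annotation). Both genes are on the minus strand, so their start sites are at their higher coordinates. It runs from 28583355 to 30005059, is 1422 kb long and holds 11 of the 33788 deposited CTCF peaks, assigned by their summits. The R1/E line carried, beside its own CTCF, a stably integrated BAC from which CTCF with a C-terminal LAP tag, which contains GFP, was expressed, and cells were kept without feeders in LIF. Chromatin was crosslinked with 1% formaldehyde, sheared to about 500 bp and precipitated with a goat GFP antibody in 1 library, which therefore reads the tagged protein, and with goat IgG in the other. The labels of the latter also call it input DNA, and it is read here as the IgG control. There is no replicate of either library, so intervals cover counting error only, and differences are between these 2 libraries.

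CTCF is a zinc finger protein that binds a long, asymmetric DNA motif, and cohesin that travels along chromatin tends to stop at CTCF sites. Loops join mostly sites whose motifs point toward each other. Shh encodes a secreted signalling protein that patterns the limb, the neural tube and many other organs, and is known for enhancers that lie far away in a gene desert and, for the limb, in an intron of Lmbr1, a gene for a membrane protein. Rnf32 encodes a RING finger protein, Nom1 a nucleolar protein, and Mnx1 a homeobox factor of motor neurons and the pancreas.

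The CTCF library held 8391191 tags and the IgG library 7988889 tags, each 35 bp long, and no tag repeated another in position and strand. Within 300 bp of the 11 summits, the CTCF library had 106 plus-strand tags on the left against 26 on the right, and 90 minus-strand tags on the right against 51 on the left. The strands were thus arranged as at the ends of fragments that surround a bound site. Ratios below are CTCF over IgG tags, scaled to equal depth and with exact 95% intervals, each tag counted 93 bp downstream of its 5′ end. A site or window is said to be called where the lower limit of this interval was at least 2.

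The sites were numbered S1 to S11 in the order of the map. The motif is written 5′ to 3′ along the strand that reads tggCCAccAGggGGCacta, the consensus of 192 CTCF sequences listed by the authors for RAD21 peaks, with capitals where at least 75% of them share the base. A motif on the plus strand points from Shh toward Lmbr1 and Mnx1, and a motif on the minus strand points the other way. The motifs found at p 1e-05 with their centre within 150 bp of a summit are given here in capitals with 5 bases on each side (mm9, the written strand named), since their direction is the feature compared across the domain.
S1, plus strand, chr5:28620725-28620743: aacgaTGACCAGCAGGTGGCGCCAtgagg
S3, minus strand, chr5:28714932-28714950: aatgcCTACCAGCAGAGGGCGCACaagtc
S5, minus strand, chr5:28796485-28796503: cggcaGGGCCAGAAGGGGGAAGGGgccat
S5, second motif, plus strand, chr5:28796503-28796521: tggccCTGCCGCTAGATGGCGTCCtcact
S7, minus strand, chr5:29619933-29619951: ccagtTGGCCACTAGAGGACTCCAgaggc
S8, minus strand, chr5:29662574-29662592: ttgtgATACCAGCAGGTGGCAGTAgaaga
S9, minus strand, chr5:29674686-29674704: gctgtTTGCCACAGGATGGCATTAaatga
S10, plus strand, chr5:29716100-29716118: aaggaGCACCGCTAGGGGGCGCGAgcgcc

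The 11 summits lay in 2 groups, S1 to S5 on the Shh side and S6 to S11 on the side of Lmbr1 and Mnx1, with 805 kb between S5 and S6 in which no peak was called. Lmbr1, which is 149 kb long, held 4 of the summits within its introns. The other genes held 0 between their start and end, but are shorter: Shh 10.3 kb, Rnf32 29.5 kb, Nom1 18.8 kb and Mnx1 5.48 kb. The region had 7.74 peaks per Mb, against 16.3 over chromosome 5 and 13.2 over the genome. The length of chromosome 5 includes its 4816074 unknown bases, while that of the genome leaves unknown bases out. These densities were set side by side without a test.

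**Figure D1:**
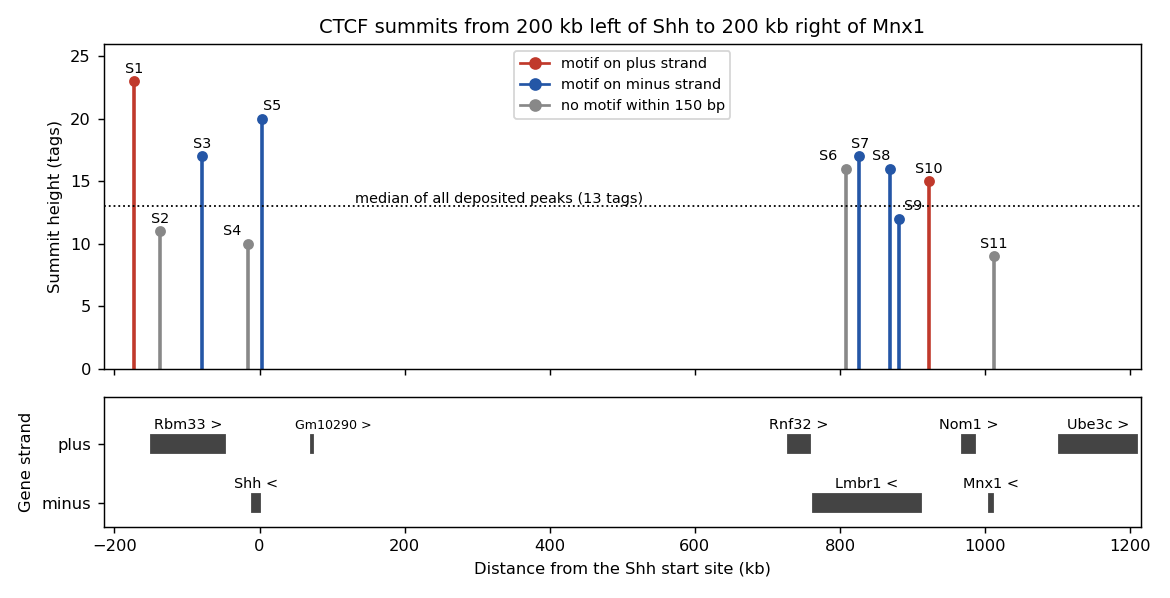
Height of each CTCF summit in tags (upper part, vertical lines with points, coloured by motif strand) and the protein-coding genes with their strand (lower part), against the distance from the Shh start site in kb. S1 to S5 stand left of and at Shh, S6 to S11 in and beyond Lmbr1, and the stretch between them is empty over 805 kb.

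At the Shh end, 3 summits lay within 100 kb of the Shh start. The nearest, S5, had its summit at 28796460, 2819 bp upstream of the start of Shh, in the first introns of the noncoding genes 9530036O11Rik and Gm17493. It was 20 tags high, a height reached by 14.7% of all deposited peaks, with a MACS score of 208.51 (a p-value on a negative logarithmic scale, larger for stronger peaks). The peak from 28795769 to 28796906 held 39 CTCF and 2 IgG tags, a ratio of 18.6 (4.81 to 159). IgG tags were also few around the peak. Outside the peaks, the 10 kb bin with S5 held 39 CTCF and 16 IgG tags, and that with S4 held 45 and 13. The 130 bins of the region without a summit had medians of 30 and 38.5. The part of this local background in the ratios near Shh was not tested. Both of the motifs at this summit lay on its right side and shared 1 base position, the better one (matrix score 18.16) on the minus strand and the weaker one (14.72) on the plus strand. S5 is therefore the site where both directions were found, and its assignment to the minus strand rests on the score alone.

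S4 lay at 28777519, beyond the 3′ end of Shh and 16122 bp from its start. It was low, with a height of 10 tags and a score of 71.22, and held 15 CTCF tags against 1 IgG tag (ratio 14.3, 2.20 to 601). No motif was found within 150 bp of its summit. The strongest motif of the whole region that lay outside all peaks was nevertheless next to it, 398 bp from the summit and 107 bp past the end of the peak, on the plus strand with a score of 25.
Beside S4, plus strand, chr5:28777908-28777926: caacaTGGCCACCAGAGGGCGCTCggcct
Within 150 bp of this motif there were 6 CTCF and 0 IgG tags, which did not reach the 10 CTCF tags needed for a call without any IgG tag. S3, the third summit of this end, was at 28714956 in intron 12 of Rbm33, which encodes an RNA-binding protein. With 17 tags in height, 32 CTCF and 2 IgG tags (ratio 15.2, 3.89 to 131), it stood between S4 and S5, and its motif (20.27) lay on the minus strand, 15 bp from the summit.

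At the Lmbr1 end, 5 summits lay in Lmbr1 or within 100 kb of its start, 4 of them in introns of the gene. In the order of the map and by the longest coding transcript of 17 exons, S6 was in intron 9, S7 in intron 5, S8 in intron 4 and S9 in intron 3. S6 at 29601709 is the first site reached from Shh across the empty stretch. Its score of 279.57 was the highest of the region, a score reached by 7.86% of all peaks, while its height of 16 tags was shared with S8. The peak held 46 CTCF and 3 IgG tags (14.6, 4.69 to 73.4).

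S7 at 29620017 was the widest peak of the region, 1473 bp, with 47 CTCF and 7 IgG tags (6.39, 2.87 to 16.8) and a height of 17 tags. Within 150 bp of its summit were 20 CTCF and 0 IgG tags (lower limit of the ratio 4.70), so the IgG tags of this peak lay in its outer parts. S8 at 29662661 had 27 CTCF and 2 IgG tags (12.9, 3.23 to 112). S9 at 29674717 was the lowest of the intronic sites, with a height of 12 tags, 25 CTCF and 2 IgG tags (11.9, 2.97 to 104). The intervals of all 4 intronic sites overlapped, so the depth did not separate their ratios. The motifs of S7, S8 and S9 all lay on the minus strand, pointing toward Shh, with scores of 15.98, 21.39 and 16.52. They were at -75, -78 and -22 bp from the summits. At p 1e-06 S7 and S9 had no motif, and within 50 bp S7 and S8 had none.

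S10 at 29716027 lay 11097 bp upstream of the start of Lmbr1, in exon 2 of the noncoding gene 4632411P08Rik. It held 39 CTCF and 7 IgG tags, the lowest ratio of the 11 (5.30, 2.35 to 14.1), and was 15 tags high. Its motif (15.95) was on the plus strand, the opposite of the intronic sites, so that the neighbours S9 and S10 pointed away from each other. Between S10 and the start of Nom1 no further peak was listed, and the nearest summit to Nom1 was 44534 bp from its start. Rnf32, which lies within the empty stretch, was farther still, at 79177 bp, a distance within which 83.6% of the protein-coding genes have a summit.

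Of the 5 genes, Mnx1 had the closest summit. S11 at 29805738 was 679 bp upstream of its start, and 7.91% of all protein-coding genes had a summit within 1 kb of theirs. It was the lowest summit of the region, with a height of 9 tags, a level reached by 87.1% of all peaks, yet it held 18 CTCF tags and 0 IgG tags (lower limit of the ratio 4.19). The 301 bp around it contained 11 CpG, the most of all 11 sites, and no motif within 150 bp. On the far side of Shh, S1 at 28620717 was the tallest summit (23 tags, reached by 7.76% of all peaks), with 43 CTCF and 4 IgG tags (10.2, 3.72 to 39.3) and the strongest motif at a summit, 24.11 on the plus strand. S2 at 28656481, in intron 1 of Rbm33, had 35 CTCF and 6 IgG tags (5.55, 2.31 to 16.2), a height of 11 tags and no motif within 150 bp. Only 13 of its CTCF tags lay within 150 bp of the summit. Its minus-strand tags within 300 bp were 9 on the left and 5 on the right, the reverse of the 11 sites together.

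**Figure D2:**
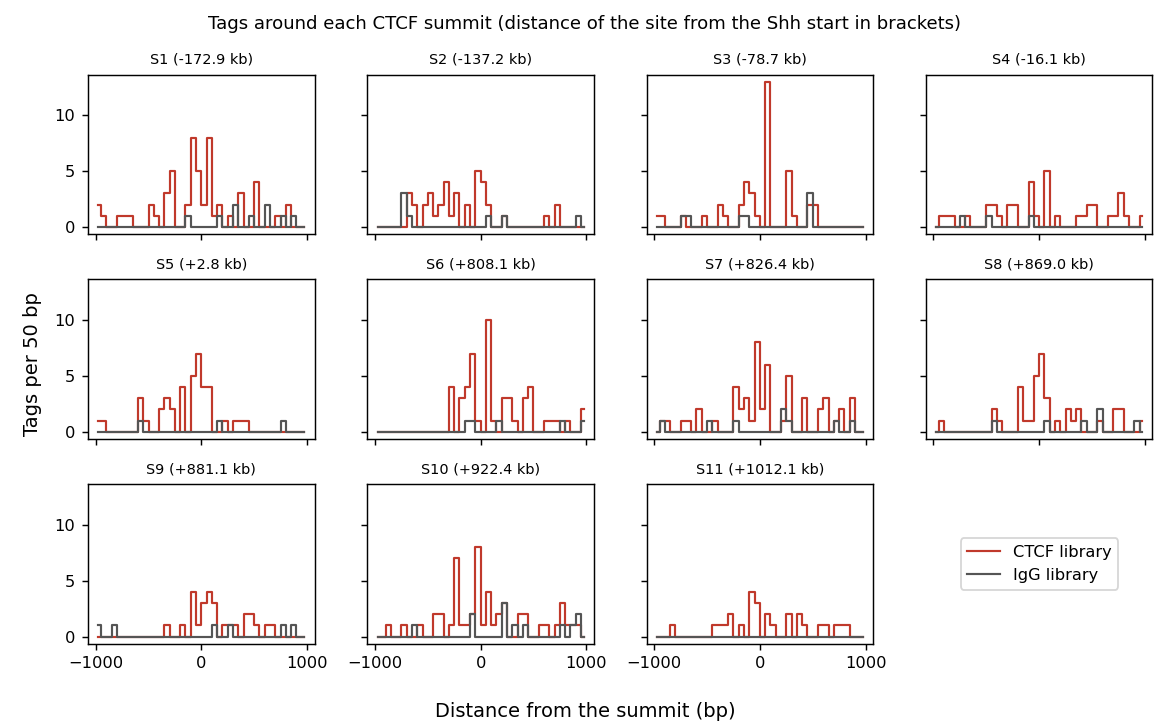
Tags per 50 bp of the CTCF library (red) and the IgG library (grey) within 1000 bp of each of the 11 summits, with the distance of the site from the Shh start in kb above each part. CTCF tags gather around the summits, though at S2 many lie to its left, while the IgG library has at most 7 tags in any of these peaks.

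All 11 peaks were called, as were 71.0% of all deposited peaks. Since the peaks were called by the authors from these same libraries, the count restates those calls. Within 150 bp of the summits, where fewer tags were counted, 8 of the 11 passed, and S2, S4 and S10 did not. Together the peaks held 366 CTCF and 36 IgG tags, a ratio of 9.68 (6.86 to 14.0), beside 8.73 over all deposited peaks. Their median height was 16 tags against 13 over all peaks (quartiles 10 and 17), and their median width 1002 bp against 832 bp. S1 and S5 were above the upper quartile of all peaks, S3, S6, S7, S8 and S10 from the median up to that quartile, and S2, S4, S9 and S11 below the median.

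**Figure D3:**
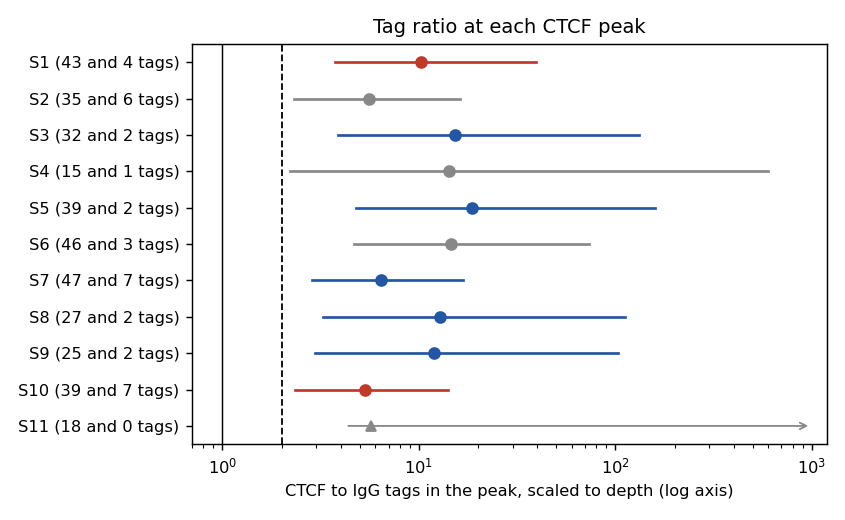
Ratio of CTCF to IgG tags in each of the 11 peaks, scaled to depth, on a log axis, with exact 95% intervals (lines) and the 2 tag counts beside each name. Colours give the motif strand (red plus, blue minus, grey none within 150 bp), the dashed line stands at 2, and for S11, which has 0 IgG tags, the arrow starts at the lower limit and the triangle is the ratio against a floor of 3 tags. All intervals lie above 2 and overlap each other.

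A motif at p 1e-05 within 150 bp was present at 7 of the 11 summits, where 73.6% of all summits had one, and 2 of these 7 were on the plus strand, against 49.8% of all summits with a motif. The median motif score was 18.16, beside 19.16 over all summits. Of the 10 neighbouring pairs, 3 had a motif at both sites, and none of these (0 of 3) was convergent, where 24.7% of such pairs were in the genome. Of the sites at the edges of the empty stretch, S5 had its better motif on the minus strand and S6 had no motif this close. With the sites that lacked a close motif passed over, S1 and S3 pointed toward each other, S9 and S10 away from each other, and the other neighbours, S5 and S7 among them, the same way.

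The 4 summits without a close motif changed this count. When the window was widened to 500 bp, a choice made after the data were seen, each of the 11 sites had a motif, 3 on the plus and 8 on the minus strand. This window held a motif at 82.6% of all summits and at 18.0% of positions 2000 bp away, so a motif at such a distance was also met away from summits. The added motifs lay inside the peak at S2 (at -318 bp from the summit), S6 (-223 bp) and S11 (287 bp) and outside it at S4, and that of S6 was the strongest after that of S4.
S2, minus strand, chr5:28656154-28656172: gaggcTCACCTGTAGGGGGAACCCttctc
S6, minus strand, chr5:29601477-29601495: actttCAGCCAACAGGTGGCACTAgatct
S11, minus strand, chr5:29806016-29806034: gaactCGGCCGGCAGGAGGAGGCGagagc
With these included, all 4 intronic sites of Lmbr1 pointed toward Shh, S4 beside Shh pointed toward Lmbr1, and 3 of the 10 neighbouring pairs were convergent (S1 with S2, S4 with S5, and S10 with S11), beside 24.2% of all pairs counted in this way.

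The empty stretch covered 56.6% of the region. Of 33736 distances between neighbouring summits in the genome, 363 were at least as long, a share of 1.08%, and the median distance was 25.6 kb. Among the 363, 21 were on chromosome 5 and 354 had under 10% unknown bases. Windows of 800 kb on the autosomes with at least 1000 IgG tags were also counted. Of these 2941 windows, 14.4% had at most 1 summit, a looser limit than the empty stretch, which has none. The share without any summit is not given here. No unknown bases lay in the empty stretch and its GC content was 43.1%, against 42.9% for the whole region. Between the edges of S5 and S6, the stretch held 2060 CTCF and 2810 IgG tags, or 2.56 and 3.49 tags per kb, so it was read by both libraries. None of its 2681 windows of 300 bp was called (0, and 0 of 4690 windows outside the peaks of the region, where 0.00282% of such windows were called in the genome). The highest window had 7 CTCF tags and 2 IgG tags, while a call in a window without IgG tags took 10 CTCF tags, so weaker enrichment in a window of this size would not have been called.

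**Figure D4:**
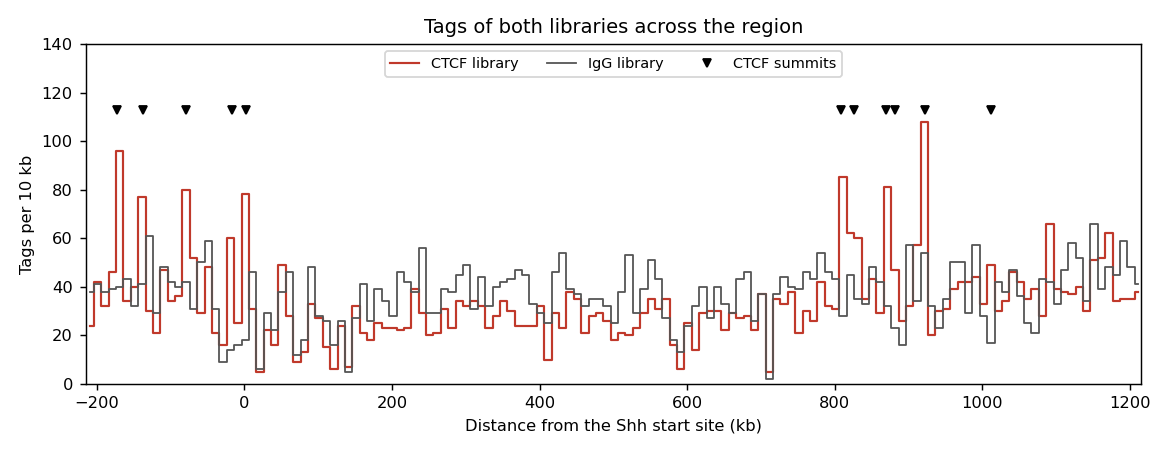
Tags per 10 kb of the CTCF library (red) and the IgG library (grey) across the region, against the distance from the Shh start in kb, with triangles at the 11 summits. The 11 bins with a summit have a median of 78 CTCF and 32 IgG tags, and the 130 bins without a summit 30 and 38.5.

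Over the empty stretch the CTCF library was below the IgG library, with a ratio of 0.698 (0.659 to 0.739). The ratio outside the peaks was 0.816 (0.784 to 0.850) in the whole region, 0.942 (0.850 to 1.04) in the 200 kb left of Shh and 0.908 (0.824 to 1.00) in the 200 kb right of Mnx1. Over chromosome 5 it was 0.957, and outside all deposited peaks of the genome 0.897. From Rnf32 to Mnx1, which overlaps the right end of the empty stretch, it was 0.893 (0.819 to 0.974). The interval of the empty stretch lay below each of these. Of the 2941 autosomal windows of 800 kb with at least 1000 IgG tags, 10.5% had a ratio outside peaks as low as the empty stretch or lower. The median of all these windows was 0.840, and that of the 423 windows with at most 1 summit was 0.696. The value of the empty stretch was close to that of other stretches with few summits.

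The empty stretch, which includes Rnf32 and the 3′ part of Lmbr1, was not without motifs. It held 45 motifs at p 1e-05, 11 of them at p 1e-06. None lay in a peak, which follows from taking the stretch between the edges of neighbouring peaks. Of all 258105 motifs of the genome, 12.5% lay in a peak. In the region as a whole, 13 of 126 motifs lay in a peak. Around the 45 motifs, within 150 bp, there were 63 CTCF and 52 IgG tags, a ratio of 1.15 (0.786 to 1.70), against 0.698 over the stretch they lie in and 2.04 around all motifs outside peaks in the genome. The interval of the 45 lay above that of the stretch (0.659 to 0.739). The 45 were also split by the letters most frequent in motifs of the genome, chosen after the data were seen. The 8 with these letters had 13 and 5 tags (2.48, 0.828 to 8.87). The other 37 had 50 and 47 (1.01, 0.666 to 1.54), an interval that overlapped that of the stretch. The most CTCF tags at any of them was 8, with 0 IgG tags, 569747 bp from the Shh start, and the strongest of the 45 by score (22.54), 52164 bp from the start, had 5 and 0. Its score was above that of the best motif at every summit with a close motif but S1. These 2 sequences are shown as the motifs of the stretch with the most tags and the highest score.
Most tags in the empty stretch, minus strand, chr5:29363379-29363397: ctttgTGGGCACCAGAGGGCGCCAacgta
Best score in the empty stretch, minus strand, chr5:28845796-28845814: acctcTGCCCAGCAGAGGGCAGCAagcag

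At the gene starts, 2 kb centred on the Shh start held 14 CTCF tags and 1 IgG tag, a ratio of 13.3 (2.03 to 564), although no peak overlapped it. Of 20110 protein-coding gene starts with no peak within 1 kb, 0.910% were called in this way, while 7.83% held at least as many CTCF tags as that of Shh. The call rested on a single IgG tag, where the median of these starts was 5. The gene body of Shh had a GC content of 55.7%, with 24 CTCF and 11 IgG tags (2.08, 0.980 to 4.70). The starts of Rnf32 and Lmbr1 each had 4 CTCF and 7 IgG tags (0.544, 0.117 to 2.14), and that of Nom1 7 and 2 (3.33, 0.634 to 32.9), which is within counting error of no difference. The start of Mnx1, which includes part of S11, had 19 CTCF and 0 IgG tags.

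The stretch between Shh and Rnf32 was set beside 2 other long stretches next to developmental genes. From the start site of Shh to that of Rnf32, 729 kb, there was 1 summit, S5, or 1.37 per Mb. From Kcnj2 to Sox9, 1705 kb on chromosome 11, there were 12 summits (7.04 per Mb), with at most 450 kb between neighbours. From Sox2 to Atp11b, 1102 kb on chromosome 3, there were 13 (11.8 per Mb), with at most 274 kb. The ratio outside the peaks was 0.756 (0.727 to 0.785) in the former and 0.871 (0.832 to 0.912) in the latter. No test of these differences was made.

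Genes of the Hedgehog pathway, through which Shh acts, had a summit nearby at a share close to that of all genes. Of 19 listed genes 18 were matched in the annotation, and 6 of them had a summit within 10 kb of the start (33.3%), where 38.4% of all protein-coding genes had one. Within 50 kb it was 13 (72.2%, against 77.0% of all). Besides Shh, those within 10 kb were the ligand genes Ihh (2042 bp) and Dhh (3160 bp), the transcription factor gene Gli1, Sufu, which encodes an inhibitor of the Gli factors, and Gas1 (1236 bp), which encodes a coreceptor. Within 1 kb were 2 of the 18 (11.1%, against 7.91% of all), Gli1 at 899 bp with a height of 24 tags and Sufu at 139 bp with 15 tags. The peaks nearest to Ihh (14 CTCF and 3 IgG tags, lower limit 1.24) and Sufu (22 and 4, lower limit 1.78) were not called. Those of the other genes within 10 kb were called, as were 71.0% of all deposited peaks. The longest distances were at Gli3 (252199 bp), Hhip (105025 bp) and Cdon (103277 bp).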

How the data were processed

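CTCF ChIP-seq of BAC-tagged R1/E ESCs was analysed from 2 libraries, 1 per antibody. The tags of both libraries were deposited as positions, each a count of 1, beside the CTCF peaks with a score and their summits with a signal (the pileup height in tags), called with MACS (version 1.4 in the submitters' processing notes) against the IgG library. The aligner is not given in the sources used here. The lowest deposited score is 50. Coordinates are mm9, as is the sequence used (NCBI m37).

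From these, fragments were estimated at 187 bp from the 1000 highest scoring peaks, and tags were shifted by 93 bp and counted. Python 3.11.15 was used with pandas 2.3.3 and numpy 2.4.6 for counting, scipy 1.17.1 for intervals, pysam 0.24.0 for sequence and matplotlib 3.10.9 for plots. Intervals are exact (Clopper-Pearson, 95%). A call needs a lower limit of at least 2. Ratios against 0 tags use a floor of 3. The motif matrix, built from the CTCF sequences the authors listed at RAD21 peaks and oriented by the known core of the motif, used a pseudocount of 1, background base frequencies (A or T 0.29, C or G 0.21) and exact thresholds. Intervals and floors cover counting error only. Scripts were tested on simulated data.

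Members, gene lists and tests were chosen with earlier results of these data known. Every peak of the region is named, with the 5 genes, and of the Hedgehog list (Shh, Ihh, Dhh, Ptch1, Smo, Gli1, Gli2, Gli3, Sufu, Hhip, Disp1, Hhat, Gas1, Cdon, Boc, Gpr161, Kif7, Scube2, Hhatl) those with a summit within 1 kb of the start. The other genes of that list with values in the text were named after their values were seen. A gene of this list is not reported here and is in no count. RAD21 and microarray data were not analysed here. Alternatives varied the score, flank, window, scaling, shift, fold, motif threshold and motif window.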

Additional observations from a re-analysis of the deposited data

How the results depend on the processing

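No paired analysis was possible because each antibody has 1 library. Of 37 alternatives over 13 summary results, 24 gave a value inside the interval (for a count, at most 1.5 times away) and 13 did not. With a flank of 500 kb the region held 18 peaks. Within 150 bp of the summits the ratio in the peaks was 18.3, and scaled by the tags outside all peaks the ratio outside them was 0.909. A lower limit of at least 3 left 6 peaks called. A motif threshold of p 1e-06 left 4 summits with a motif, 1 of them on the plus strand, and 6 motifs in peaks, and a window of 50 bp also gave 4 and 1. A window of 500 bp, chosen after the data were seen, gave 11 summits with a motif and 3 convergent pairs. Hedgehog genes with a summit numbered 2 within 1 kb and 13 within 50 kb. Stricter limits lower these counts by construction. The longest distance, the 1 peak between Shh and Rnf32 and the 0 called windows stayed as they were in the alternatives run for them. Of the ratios at single peaks, those of S1, S2, S3, S4, S6, S8, S9 and S10 stayed within their interval when counted within 150 bp of the summit, and for S5, S7 and S11 no such comparison could be made, since 0 IgG tags remained. The depth limits single sites most, since an IgG count of 0 to 7 tags leaves wide intervals.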

Other observations

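Many motifs of the region that lie outside the peaks read alike. The letters CCAGAAGAGGG, the most frequent run of 11 letters in the motifs of the genome, read along the motif strand on either strand of the map and chosen after the data were seen, were in 44 of the 126 motifs of the region, and 1 of these 44 lay in a peak, against 12 of the 82 without them. The letters are known from B2 repeats, which are spread in very many copies over the mouse genome, but no repeat annotation was used here. In the genome, 72664 motifs held the letters and 8.86% of them lay in a peak, against 13.9% of the 185441 others. A copy near Nom1 and a copy near Mnx1 show how similar such motifs are.
Near Nom1, minus strand, chr5:29759435-29759453: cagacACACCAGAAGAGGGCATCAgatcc
Near Mnx1, minus strand, chr5:29792631-29792649: cagacACACCAGAAGAGGGCATGGgatgg
Outside the peaks of the region, motifs with the letters had 67 CTCF and 28 IgG tags within 150 bp, a ratio of 2.28 (1.45 to 3.68), and those without them 109 and 80, a ratio of 1.30 (0.963 to 1.75). The intervals overlapped, and the difference between the ratios was not tested. Over the genome the ratios were 3.40 (3.36 to 3.45) and 1.71 (1.70 to 1.73), with 0.472 and 0.835 IgG tags per motif. The CTCF tags per motif over the genome were 1.688 with the letters and 1.503 without them. In the region they were nearly equal, 1.558 and 1.557, while the IgG tags per motif were 0.651 and 1.143. The ratios of the region thus differed by the IgG count, and over the genome both counts differed. Why the IgG count was lower at motifs with the letters was not tested.

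The bin of 10 kb centred 1091 kb from the Shh start, in the right flank and without a summit, held 66 CTCF and 42 IgG tags, the most CTCF tags of the 130 such bins.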
